A study of Mus musculus with 16 samples.

Results

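Sustentacular cells are the supporting cells of the olfactory epithelium, and 10 genes used as their labels, apart from the large families of detoxifying enzymes, are described here. The 10 were taken by symbol (Krt8, Krt18, Ermn, Cbr2, Aldh1a7, Notch2, Hes1, Epas1, Muc2 and Fezf1). All 10 had a row, with 1 probe set each, among the 19505 named genes of the array. Sustentacular cells span the epithelium from its surface to its base, wrap the olfactory sensory neurons, hold simple-epithelial keratins, and carry enzymes that convert inhaled chemicals. Notch signalling, in which a ligand on a cell activates a receptor on its neighbour, is known in mouse to be needed for their upkeep through Notch2.

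All mice carried the S100a5-tauGFP reporter, in which the promoter of an activity-dependent gene of olfactory sensory neurons drives a green fluorescent protein, so GFP+ marks recently active neurons and GFP- holds every other cell, less active neurons included. A total of 24 mice of both sexes, 7 to 12 weeks old, stayed singly in clean-air chambers for 40 h at 3.1 L per min. From 26 h on they received 10 s pulses every 20 min of 2-hexanone, a small ketone odorant, or of filtered air as vehicle. Olfactory mucosa of 3 mice was pooled, dissociated and sorted, which gave 4 arrays each of GFP+ cells after 2-hexanone, GFP- cells after 2-hexanone, GFP+ cells after vehicle and GFP- cells after vehicle. Each of the 16 Clariom S arrays used 50 to 100 ng of RNA, and the strain background was not given in the sources used here.

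Values are deposited log2 signals per probe set. They run to 19.81, above what a 16-bit scanner records, so an unstated transformation underlies every difference and fold below. The background floor of an array is the highest of its 23 antigenomic background rows, and it lay between 6.16 and 7.33. A probe set under the floor gives only an upper bound, and levels of different probe sets are not compared with each other. Of 12 mature neuron markers 11 lay above the floor on all 16 arrays, and all 9 endothelial markers lay under it on all 16. The number of arrays, 4 a group, limits the precision.

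Signal above the floor was present for only some of the 10 genes. Cbr2, Muc2 and Fezf1 lay above the floor on all 16 arrays, and Krt8 and Krt18 on 8 arrays, which were the 8 GFP- arrays. Ermn, Aldh1a7, Notch2, Hes1 and Epas1 lay under it on all 16. Fezf1, a zinc finger transcription factor known in mouse for its role in olfactory sensory neurons, goes against the label. It read 16.40 to 17.01 and stood 9.57 to 10.85 above the floor in both fractions, so the group is called the 10 labelled genes below and not sustentacular expression as such.

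GFP+ cells were first set against GFP- cells within each treatment, and a call means a limma p below 0.05 after Benjamini-Hochberg adjustment over all 22206 probe sets. After 2-hexanone 5 of the 10 genes were lower in GFP+ cells (Krt18, Krt8, Notch2, Epas1 and Cbr2) and 0 were higher, where 9.56% of all probe sets were lower and 5.29% higher. Of these 5, Notch2 and Epas1 lay under the floor on all arrays. The count was 3 without odor replicate 1, 2 or 4, and with values raised to the floor it was 2 of the 5 genes that then kept a value. After vehicle 4 of 10 were lower (Krt18, Krt8, Notch2 and Cbr2) and 0 were higher, against 9.86% and 5.83% of all probe sets. That count was 2 of 5 genes with values raised to the floor. The median difference of the 10 was -0.78 after 2-hexanone and -0.30 after vehicle, and that of all probe sets was 0.14 in both. In these pooled sorted samples, fewer cells of a type and less RNA per cell cannot be told apart. The groups did not overlap for 6 genes that were lower in GFP+ cells and 1 that was higher after 2-hexanone, against 10.6% and 9.40% of all probe sets. After vehicle that held for 4 lower and 0 higher genes, against 10.0% and 9.01%.

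**Figure D1:**
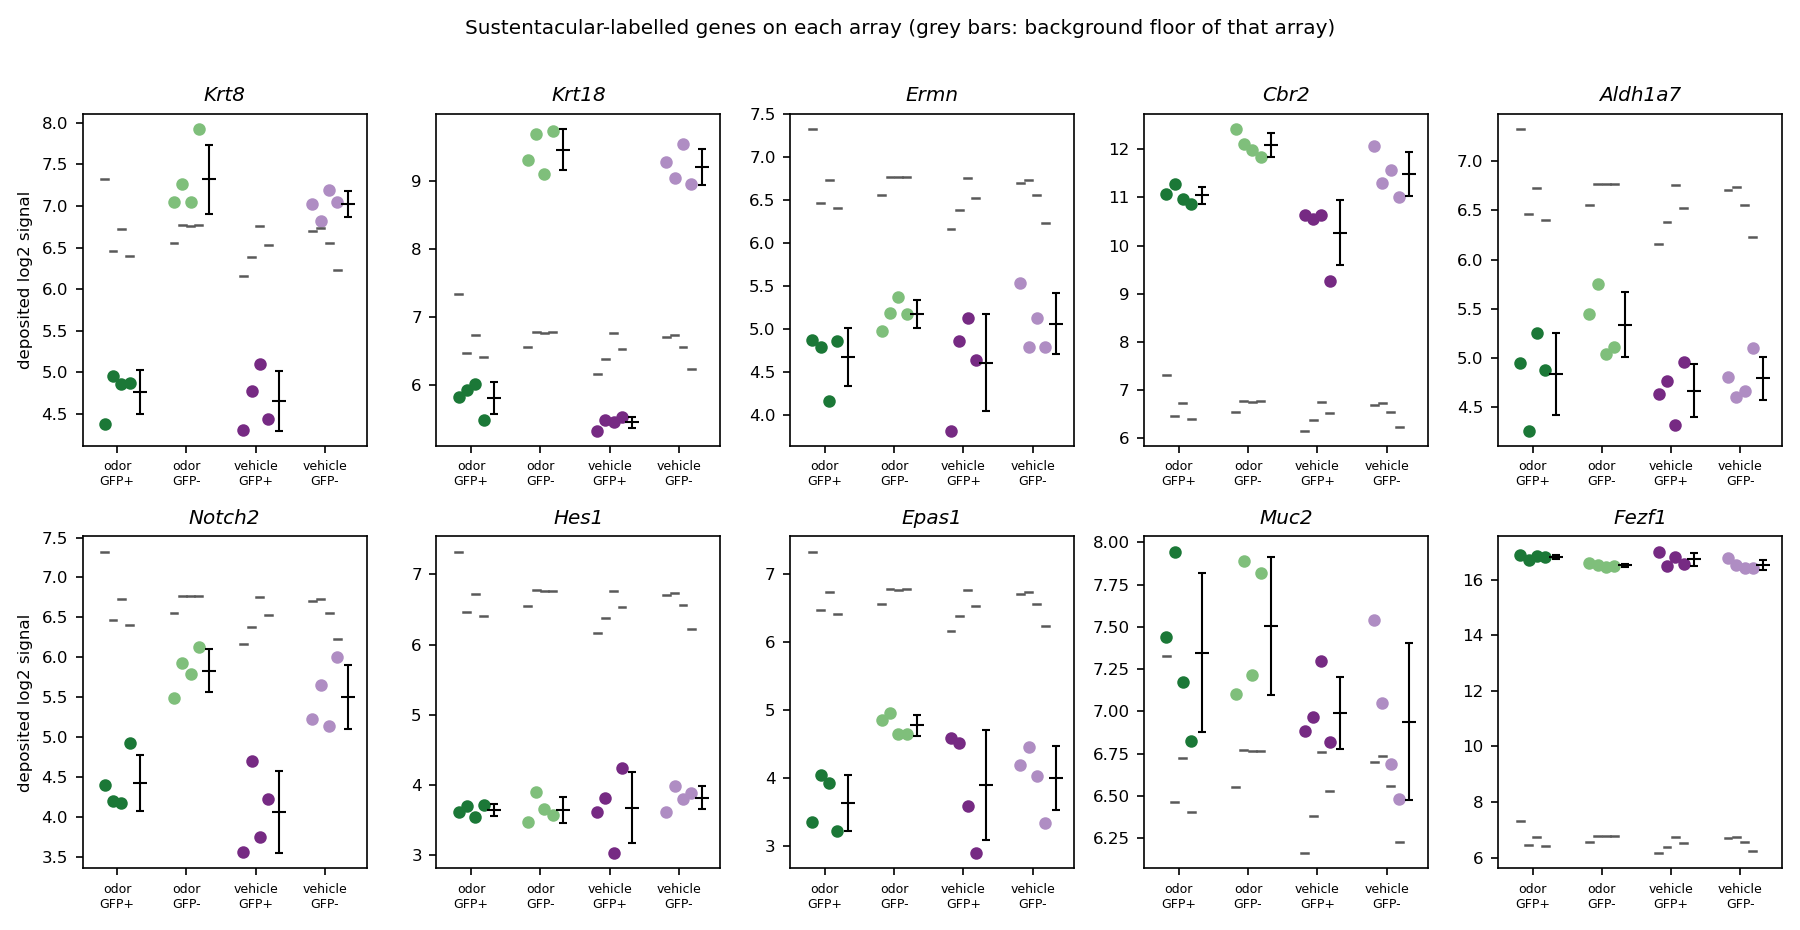
Deposited log2 signal of the 10 labelled genes on each of the 16 arrays, by group (odor is 2-hexanone; points are arrays in replicate order, crosses are the mean and SD of 4 arrays, grey bars are the background floor of each array). Krt8 and Krt18 lie under the grey bars in GFP+ cells and above them in GFP- cells, while Fezf1 lies far above them in all 4 groups.

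The keratins Krt8 and Krt18, partner proteins that pair into the filaments of simple epithelia, were lower in GFP+ cells in both treatments. Krt18 read 5.81, 5.92, 6.01 and 5.48 in the 4 GFP+ samples after 2-hexanone, against 9.30, 9.69, 9.10 and 9.73 in the GFP- samples. It read 5.32, 5.48, 5.45 and 5.52 in the GFP+ samples after vehicle, against 9.27, 9.04, 9.54 and 8.96 in the GFP- samples. Every GFP+ array lay under its floor and every GFP- array above it, with no overlap. Krt18 was therefore at least 6.61-fold lower in GFP+ cells after 2-hexanone (log2 difference -3.65 ± 0.19 SE, adjusted p = 1.50e-10). The bound after vehicle was 6.70-fold (-3.76 ± 0.19 SE, adjusted p = 1.11e-10), and the 8 pool differences ran from -4.24 to -3.09.

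Krt8 showed the same split closer to the floor. It read 4.37, 4.96, 4.86 and 4.87 in GFP+ samples after 2-hexanone, against 7.05, 7.26, 7.04 and 7.93 in GFP- samples. After vehicle it read 4.30, 4.78, 5.10 and 4.44 in GFP+ samples, against 7.03, 6.81, 7.20 and 7.05 in GFP- samples. No GFP+ value reached the lowest GFP- value, and the highest Krt8 reading was that of GFP- replicate 4 after 2-hexanone. The difference was -2.55 ± 0.23 SE after 2-hexanone (adjusted p = 1.15e-07) and -2.37 ± 0.23 SE after vehicle (adjusted p = 3.20e-07), but the floor allowed only "at least 1.51-fold lower" and "at least 1.48-fold lower". With all values raised to the floor, Krt8 no longer passed (-0.59, adjusted p = 0.109 after 2-hexanone; -0.56, adjusted p = 0.123 after vehicle).

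The genes of this keratin pair lie on mouse chromosome 15 with start sites 23.874 kb apart and are read from opposite strands. Their start regions are shown because both genes moved together in this comparison. Each window holds 250 bases before and 50 bases from the start site, as in RefSeq for build GRCm38.p6. It is chr15:102004293-102004592 (minus strand) for Krt8 and chr15:102027966-102028265 (plus strand) for Krt18. Capitals mark matches on either strand to the TATA box, searched as TATAAA, or to the core sequence read by RBPJ, searched as TGGGAA. RBPJ is the DNA-binding partner of activated Notch.
Krt8: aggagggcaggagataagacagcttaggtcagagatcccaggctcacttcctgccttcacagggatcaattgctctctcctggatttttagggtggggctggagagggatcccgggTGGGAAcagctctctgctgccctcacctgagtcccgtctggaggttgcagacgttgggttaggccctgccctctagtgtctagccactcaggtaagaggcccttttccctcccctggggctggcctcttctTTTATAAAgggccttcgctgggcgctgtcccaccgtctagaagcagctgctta
Krt18: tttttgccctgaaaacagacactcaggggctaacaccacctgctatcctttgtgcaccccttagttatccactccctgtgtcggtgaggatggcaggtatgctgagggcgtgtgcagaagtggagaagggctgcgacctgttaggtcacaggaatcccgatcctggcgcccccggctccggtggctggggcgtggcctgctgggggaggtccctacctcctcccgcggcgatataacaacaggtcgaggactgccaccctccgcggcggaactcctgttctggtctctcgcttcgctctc
The Krt8 window held TGGGAA at positions -134 to -129, counted from 1 at the start base, and a TATAAA match that overlaps the annotated start together with one on the opposite strand. The Krt18 window held neither. TATAAA occurred in 13.6% of 32851 RefSeq windows of this length and in 3 of the 8 members with a window, and TGGGAA in 25.6% and in 3 of 8. The GC box, searched as GGGCGG, occurred in 35.7% of windows and in 3 of 8 members (Notch2, Fezf1 and Muc2), and the hypoxia response core, searched as ACGTG, in 19.6% and in 1 of 8 (Ermn). These matches describe letters only.

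Ermn, which encodes the cytoskeletal protein ermin known from mouse oligodendrocytes, lay 1.16 or more under the floor on every array. It ranged from 3.82 to 5.54 over the 16 arrays. The difference was -0.51 ± 0.26 SE after 2-hexanone (adjusted p = 0.230), where the groups did not overlap, and -0.45 ± 0.26 SE after vehicle (adjusted p = 0.277), where they did. Neither passed the test.

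Cbr2, a carbonyl reductase best known from mouse lung, was the only one of the 10 that passed in both treatments with all 16 arrays above the floor. It read 11.07, 11.29, 10.97 and 10.86 in GFP+ samples after 2-hexanone, against 12.42, 12.12, 11.99 and 11.84 in GFP- samples. After vehicle it read 10.65, 10.54, 10.63 and 9.26 in GFP+ samples, against 12.08, 11.31, 11.56 and 11.01 in GFP- samples. Within each treatment every GFP+ value lay under every GFP- value, and GFP+ replicate 4 after vehicle stood lowest, well apart from the other GFP+ samples. Cbr2 was 2.06-fold lower in GFP+ cells after 2-hexanone (-1.05 ± 0.29 SE, adjusted p = 0.0168) and 2.33-fold lower after vehicle (-1.22 ± 0.29 SE, adjusted p = 0.00542). The call after 2-hexanone was lost when any 1 odor pool was left out, at differences of -1.12 to -0.94 (adjusted p = 0.0502 to 0.0946), and when arrays were centred on their medians (-0.69, adjusted p = 0.0564). By mean level GFP- cells after 2-hexanone stood highest and GFP+ cells after vehicle lowest. The groups between them, GFP+ cells after 2-hexanone and GFP- cells after vehicle, overlapped.

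The Cbr2 start region is shown as that of the only labelled gene measured above the floor throughout that was lower in GFP+ cells. It is chr11:120731972-120732271 on the minus strand, with the same limits and the same meaning of capitals as for the keratins.
Cbr2: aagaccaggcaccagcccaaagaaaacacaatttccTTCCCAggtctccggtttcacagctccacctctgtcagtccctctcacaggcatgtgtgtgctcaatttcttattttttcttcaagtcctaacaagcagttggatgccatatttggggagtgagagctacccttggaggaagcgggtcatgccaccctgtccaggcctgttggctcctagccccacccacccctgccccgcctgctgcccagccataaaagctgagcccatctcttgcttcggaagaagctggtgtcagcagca
The capitals are a TGGGAA match on the opposite strand, at positions -214 to -209. Aldh1a7, an aldehyde dehydrogenase closely related to Aldh1a1, lay under the floor on all 16 arrays (4.26 to 5.75) and did not pass. Its difference was -0.50 ± 0.23 SE after 2-hexanone (adjusted p = 0.164) and -0.12 ± 0.23 SE after vehicle (adjusted p = 0.776).

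Notch2, a Notch receptor, fell in GFP+ cells in both treatments, but on signals under the floor in every group. It read 4.40, 4.20, 4.17 and 4.92 in GFP+ samples after 2-hexanone, against 5.48, 5.93, 5.79 and 6.12 in GFP- samples. After vehicle it read 3.55, 4.70, 3.75 and 4.22 in GFP+ samples, against 5.22, 5.65, 5.13 and 6.004 in GFP- samples. The fractions did not overlap in either treatment, and the 8 pools all had the lower value in GFP+ cells. The difference was -1.41 ± 0.26 SE after 2-hexanone (adjusted p = 0.000757) and -1.45 ± 0.26 SE after vehicle (adjusted p = 0.000606), and no fold can be given. Hes1, a transcriptional repressor switched on by Notch signalling, stayed within 3.03 to 4.25 on all arrays. It did not pass (-0.00 ± 0.21 SE, adjusted p = 0.997 after 2-hexanone; -0.14 ± 0.21 SE, adjusted p = 0.708 after vehicle).

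Epas1 encodes HIF-2 alpha, an oxygen-sensitive transcription factor, and was called in 1 treatment only. It read 3.35, 4.04, 3.92 and 3.21 in GFP+ samples after 2-hexanone, against 4.84, 4.95, 4.64 and 4.64 in GFP- samples. After vehicle it read 4.58, 4.51, 3.59 and 2.89 in GFP+ samples, against 4.18, 4.45, 4.02 and 3.34 in GFP- samples. The fractions were apart after 2-hexanone and mixed after vehicle, where 2 of 4 pools had the lower value in GFP+ cells. The difference was -1.14 ± 0.33 SE after 2-hexanone (adjusted p = 0.0242) and -0.11 ± 0.33 SE after vehicle (adjusted p = 0.875). The difference between treatments did not pass its own test (-1.03 ± 0.47 SE, unadjusted p = 0.0399, limma adjusted p = 1.00). All of these readings were under the floor. The call after 2-hexanone was lost without odor replicate 1, 2 or 4, at differences of -1.02, -1.22 and -1.04 (adjusted p = 0.125, 0.0588 and 0.118), and with centred arrays (-0.79, adjusted p = 0.0590).

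Muc2, a gel-forming mucin typical of goblet cells, was not called in either treatment. It lay only 0.12 to 1.48 above the floor. Muc2 averaged 7.35 ± 0.47 in GFP+ and 7.51 ± 0.41 in GFP- cells after 2-hexanone (SD, n = 4 each), and 6.99 ± 0.21 in GFP+ and 6.94 ± 0.46 in GFP- cells after vehicle. The groups overlapped, with differences of -0.16 ± 0.27 SE (adjusted p = 0.764) and 0.05 ± 0.27 SE (adjusted p = 0.931), and 95% confidence intervals of -0.72 to 0.41 and -0.51 to 0.62.

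Of 19572 named probe sets 64.2% had a positive GFP+ minus GFP- difference after 2-hexanone and 64.3% after vehicle. Among the labelled genes only Fezf1 had one in both treatments. It read 16.90, 16.71, 16.85 and 16.81 in GFP+ samples after 2-hexanone, against 16.59, 16.51, 16.47 and 16.48 in GFP- samples. After vehicle it read 17.01, 16.49, 16.82 and 16.57 in GFP+ samples, against 16.76, 16.53, 16.40 and 16.40 in GFP- samples. The fractions did not overlap after 2-hexanone and overlapped after vehicle. Neither difference passed (0.30 ± 0.16 SE, adjusted p = 0.237 after 2-hexanone; 0.20 ± 0.16 SE, adjusted p = 0.451 after vehicle). Array medians lay at 5.70 to 5.76 on GFP+ and 6.06 to 6.12 on GFP- arrays. Centring the arrays on these medians raised every GFP+ minus GFP- difference. The median difference of all probe sets moved to 0.49 after 2-hexanone and 0.50 after vehicle. Fezf1 then passed at 0.66 (adjusted p = 0.00445) and 0.56 (adjusted p = 0.0102).

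**Figure D2:**
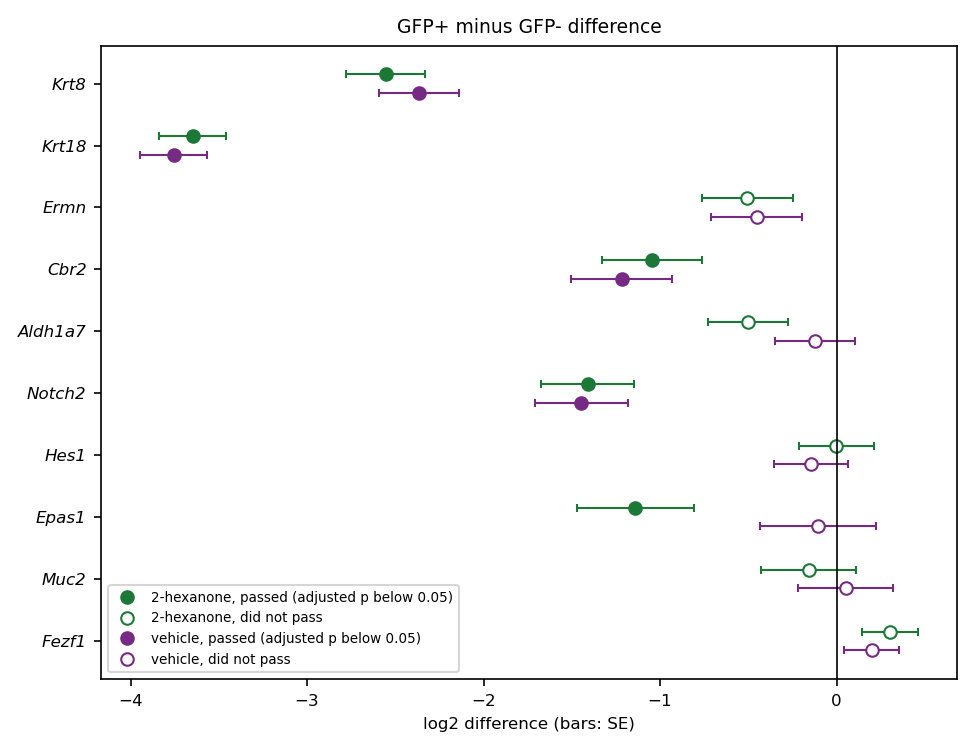
GFP+ minus GFP- log2 difference of each labelled gene with its SE, after 2-hexanone (green) and vehicle (purple); filled points passed the limma test at adjusted p below 0.05. Krt8, Krt18, Cbr2 and Notch2 lie left of 0 and are filled in both treatments, Epas1 is filled after 2-hexanone only, and Fezf1 lies right of 0 and is open.

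**Figure D3:**
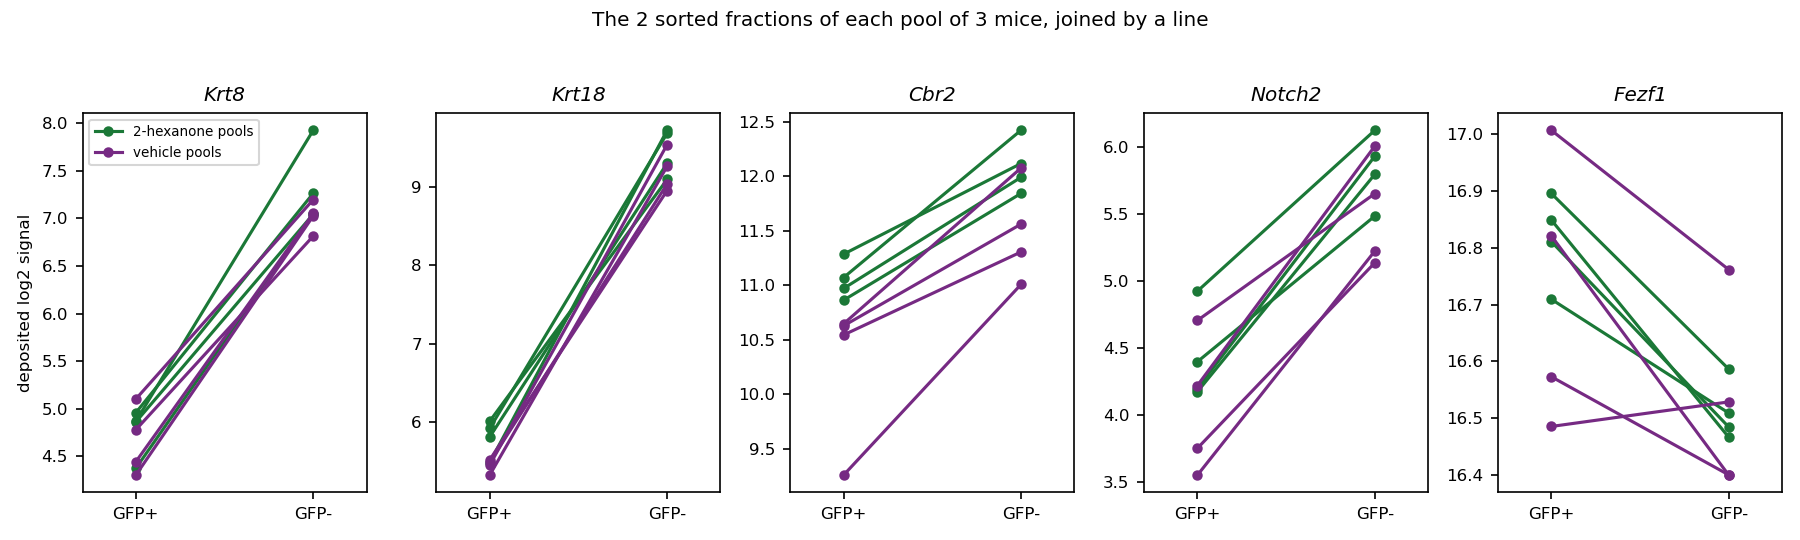
Deposited log2 signal in the GFP+ and GFP- cells of each pool of 3 mice, joined by a line, for 5 labelled genes (green: 2-hexanone pools; purple: vehicle pools). Krt8, Krt18, Cbr2 and Notch2 are lower in GFP+ cells in all 8 pools, and Fezf1 is higher in GFP+ cells in 7 of 8.

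Of 16 other sustentacular markers 11 were lower in GFP+ cells after 2-hexanone and 10 after vehicle, and 0 were higher in either, with medians of -1.69 and -1.94. Beside list counts here and below, 9.56% of all probe sets were lower and 5.29% higher after 2-hexanone. After vehicle these shares were 9.86% and 5.83%. Cyp2g1, an olfactory cytochrome P450, was 3.37-fold lower after 2-hexanone (-1.75 ± 0.37 SE, adjusted p = 0.00214) and 4.39-fold lower after vehicle (-2.13 ± 0.37 SE, adjusted p = 0.000324). Cdh1, the epithelial cadherin, was at least 14.8-fold lower after 2-hexanone, where all GFP+ arrays were under the floor. After vehicle, with 1 of 4 GFP+ arrays above it, the difference was -4.23. Ezr, a linker of membrane and actin in microvilli, was lower by -3.62 and -3.23. Sult1d1, a sulfotransferase at 18.49 in GFP+ and 18.37 in GFP- cells after 2-hexanone, did not pass (0.12, adjusted p = 0.659). The mean over these 16 markers lay at 8.33 to 8.55 on GFP+ and 10.05 to 10.41 on GFP- arrays after 2-hexanone, and at 8.04 to 8.40 on GFP+ and 9.96 to 10.18 on GFP- arrays after vehicle.

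Markers of other GFP- cell types moved with the same contrast, and their part in the results on the labelled genes was not tested. List medians and means below take readings under the floor as deposited. In each treatment 8 of 10 microvillous cell markers were under the floor on all GFP+ arrays. Of the 10, 9 were lower in GFP+ cells after 2-hexanone and 10 after vehicle, with medians of -3.68 and -3.23. Their mean lay at 5.13 to 5.54 on GFP+ and 8.22 to 8.60 on GFP- arrays after 2-hexanone, and at 5.12 to 5.40 on GFP+ and 8.003 to 8.48 on GFP- arrays after vehicle. Trpm5, the channel of tuft-like microvillous cells, was under the floor on all GFP+ arrays and above it on all GFP- arrays, as was Cftr, the chloride channel of ionocytes. All 15 immune markers were lower in GFP+ cells in both treatments, with medians of -6.97 and -6.60. On all GFP+ arrays 11 of the 15 were under the floor after 2-hexanone and 12 after vehicle. The immune mean lay at 4.87 to 5.14 on GFP+ and 11.26 to 11.88 on GFP- arrays after 2-hexanone, and at 4.64 to 5.20 on GFP+ and 10.33 to 12.36 on GFP- arrays after vehicle.

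The horizontal basal keratins Krt5 and Krt14 were under the floor on all 16 arrays and did not pass. Of the 6 horizontal basal markers 2 were lower in GFP+ cells after 2-hexanone and 1 after vehicle. In each treatment all 6 lay under the floor on all GFP+ arrays, and 5 did on all GFP- arrays. Of the 6 globose basal and cycling markers 5 were lower in both treatments, with medians of -2.23 and -2.32, and all 6 lay under the floor on all GFP+ arrays. Of 10 Bowman gland markers 3 were lower in both, and of 7 respiratory ciliated markers 0 were lower in either and 1 was higher after vehicle. Of 12 mature neuron markers 1 was higher after 2-hexanone and 2 after vehicle, with 0 lower, and of 10 immature neuron markers 5 and 6 were lower, with 0 higher. Of 8 glia and oligodendrocyte markers, the cells from which Ermn is best known, 1 was higher and 1 lower after 2-hexanone, and 0 were higher and 1 lower after vehicle. All 8 lay under the floor on every array after 2-hexanone. After vehicle 7 did on all GFP+ arrays and 6 on all GFP- arrays. Of 8 stromal and pericyte markers 1 was higher after 2-hexanone and 0 after vehicle, and 2 were lower in both, while 1 of 9 endothelial markers was lower in each. In every group 6 or 7 of the stromal markers and all 9 endothelial markers lay under the floor on all arrays. Of all probe sets 9.56% were lower and 5.29% higher after 2-hexanone, and 9.86% were lower and 5.83% higher after vehicle.

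**Figure D4:**
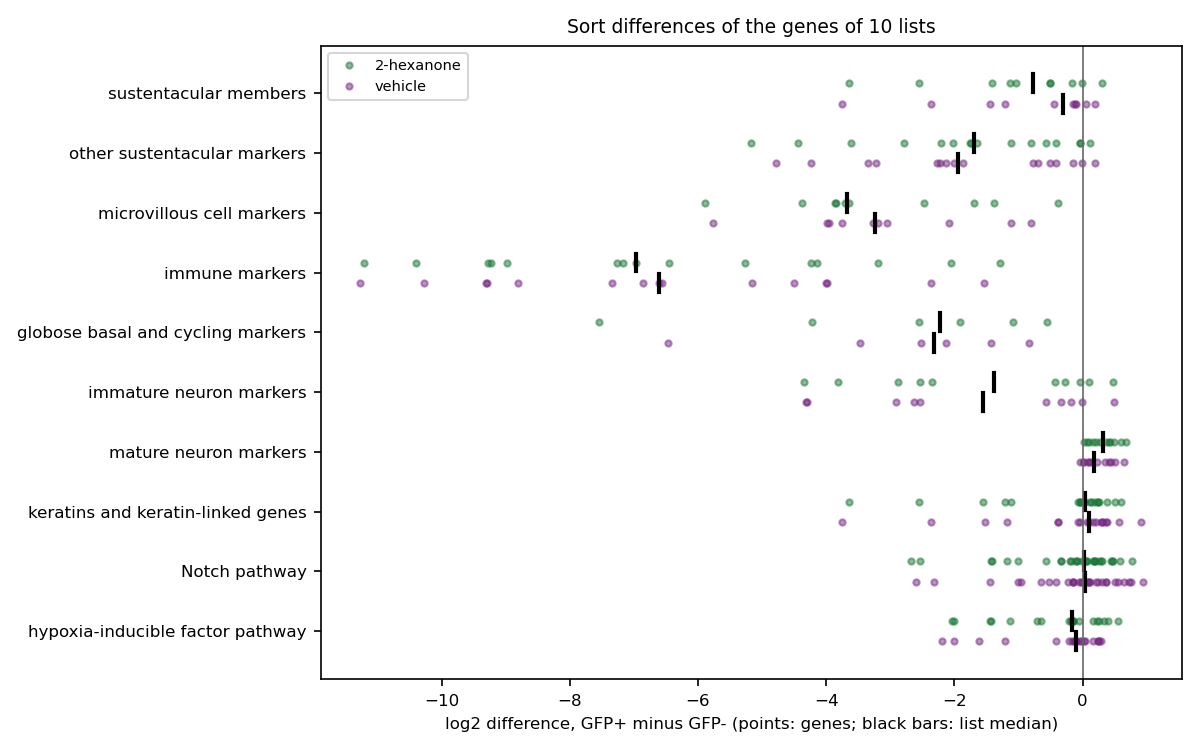
GFP+ minus GFP- log2 difference of each gene of 10 lists (points), after 2-hexanone (green) and vehicle (purple), with the list median as a black bar. The 10 labelled genes have medians of -0.78 and -0.30, other sustentacular markers -1.69 and -1.94, microvillous markers -3.68 and -3.23, and immune markers -6.97 and -6.60.

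Lists of pathways around the labelled genes had medians from -0.235 to 0.10 over both treatments, where all probe sets had 0.14 in each. Of all probe sets 9.56% were lower and 5.29% higher after 2-hexanone, and 9.86% were lower and 5.83% higher after vehicle. These lists were not cleared of labelled genes. Their counts and medians take in members that belong to them, such as Cbr2 among the enzymes. Among 19 keratins and keratin-linked genes 4 were lower in GFP+ cells in both treatments (Krt8, Krt18, Krt7 and Krt80), and the medians were 0.04 and 0.10. Krt7 was lower by differences of -1.21 after 2-hexanone and -1.52 after vehicle, and Krt80 by -1.56 and -1.18, nearly all of these readings being under the floor. Krt20 was higher after vehicle (0.92, adjusted p = 0.0363) on readings under the floor.

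Among 30 Notch pathway genes 1 was higher and 6 lower in GFP+ cells after 2-hexanone, and 1 was higher and 4 lower after vehicle. Of all probe sets 5.29% were higher and 9.56% lower after 2-hexanone, and 5.83% higher and 9.86% lower after vehicle. Jag1, a ligand of Notch receptors, was higher in both treatments (0.76 ± 0.19 SE, adjusted p = 0.00841; 0.94 ± 0.19 SE, adjusted p = 0.00146) and lay above the floor on all 16 arrays. Lfng and Mfng, glycosyltransferases that modify Notch, passed as lower in both treatments, each under the floor on all GFP+ arrays and above it on only 1 or 2 of 4 GFP- arrays in a treatment. For Lfng no fold could be bounded after 2-hexanone and the bound after vehicle was 1.13-fold, while for Mfng the bounds were 1.0008-fold and 1.02-fold. Adam10, a protease that cuts Notch, was 2.01-fold lower in both treatments. Rbpj, the partner of activated Notch, did not pass (-0.12, adjusted p = 0.697; -0.05, adjusted p = 0.881).

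Among 20 genes of the hypoxia-inducible factor pathway 5 were lower in GFP+ cells after 2-hexanone and 3 after vehicle, with 0 higher in either. Cited2, a regulator that limits these factors, was 4.03-fold and 4.02-fold lower. Ndrg1, a hypoxia-induced gene, was at least 1.50-fold and at least 2.03-fold lower, and Egln3, an oxygen-sensing hydroxylase, was lower (-1.43 and -1.62) under the floor. Hif1a, the relative of Epas1, read 12.65 in GFP+ and 12.84 in GFP- cells after 2-hexanone and did not pass (-0.19, adjusted p = 0.478).

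Among 15 mucins and goblet genes 2 were lower in both treatments, and these were Muc1 and Muc20, both membrane-bound mucins. Muc1 was at least 3.13-fold and at least 3.24-fold lower in GFP+ cells, and Muc20 at least 2.32-fold and at least 2.47-fold lower. Among 19 aldehyde and carbonyl enzymes 4 were lower after 2-hexanone and 5 after vehicle, with Cbr2 among them in both. Aldh2, the mitochondrial aldehyde dehydrogenase, was 30.3-fold lower after 2-hexanone and 31.7-fold lower after vehicle, while Cbr1, another carbonyl reductase, did not pass (0.50, adjusted p = 0.0567; 0.36, adjusted p = 0.181). Among 14 genes of the ezrin family and linked membrane proteins 3 were lower in both, namely Ezr, Rdx and Msn. Tjp1, a tight junction protein, was higher after vehicle (0.60, adjusted p = 0.0377).

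Likeness of pattern was described by Pearson's r over arrays that share their pools and their sort, so r over the 16 arrays takes in the difference between fractions. Over the 16 arrays the named genes most like Cbr2 were Cyp2g1 (r = 0.94), Olfr180 (r = 0.882) and Srgap3 (r = 0.881). Those most like Krt18 were Hepacam2 (r = 0.996), a marker of microvillous cells, Anxa4 (r = 0.993) and Stap1 (r = 0.99), and those most like Krt8 were Plk2 (r = 0.98), Mylip (r = 0.978) and Anxa4 (r = 0.977). Fezf1 was most like Fbxo25 (r = 0.904), Olfm1 (r = 0.888) and Etv4 (r = 0.886). No gene reached more than r = 0.781 with Muc2 (Col6a1), and Dnase1l1 (r = 0.775) and Nostrin (r = 0.751) came next. Srgap3, Etv4, Col6a1, Dnase1l1 and Nostrin were under the floor on all 16 arrays. Krt8 and Krt18 had r = 0.98 over the 16 arrays, 0.767 over the 8 GFP- arrays and 0.229 over the 8 GFP+ arrays, where both were under the floor. Over the 8 GFP- arrays, which hold both treatments, Cbr2 was most like Paip1 (r = 0.975), Cds1 (r = 0.963) and Foxi1 (r = 0.962). Among the labelled genes its highest r there was with Epas1 (0.787), under the floor on all 16 arrays. Krt8 was there most like 1600014C23Rik (0.961), Tinagl1 (0.9595) and Cldn34b4 (0.959). Krt18 was most like Gm10406 (0.974), Dll3 (0.965) and Cept1 (0.96), and Muc2 like Prss33 (0.959), Ramp3 (0.951) and Vmn1r120 (0.948). Fezf1 was most like Zfp664 (0.968), Olfr361 (0.967) and Map7d2 (0.959). Dll3 and all those for Krt8 and Muc2 were under the floor on all 16 arrays.

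The other comparison set 2-hexanone against vehicle within a fraction. In GFP+ cells 0 of the 10 labelled genes passed the limma test in either direction, where 0.00901% of all probe sets were higher and 0% lower. At an unadjusted p below 0.05, 1 of 10 was higher (Cbr2), against 1.98% of all probe sets, and 0 were lower, against 1.94%. In GFP- cells 0 of 10 passed, where 0% of all probe sets were higher and 0% lower. At an unadjusted p below 0.05, 3 were higher (Cbr2, Epas1 and Aldh1a7) and 0 lower, against 1.23% of all probe sets in each direction. The groups did not overlap for 1 gene in GFP+ cells (Cbr2, against 1.01% of all probe sets) and for 1 in GFP- cells (Epas1, against 0.941%), both higher after 2-hexanone, and for 0 that were lower, against 1.00% and 0.833%. The sign was positive for 8 of 10 genes in each fraction, with medians of 0.14 in GFP+ and 0.31 in GFP- cells, and 5 of the 10 genes lay under the floor on every array. Over 19572 named probe sets the sign was positive for 50.4% in GFP+ and 49.9% in GFP- cells, and the medians of all probe sets were 0.0032 and 0.0002. The fractions of a pool come from the same mice, so the 2 counts do not stand apart from each other.

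Cbr2 averaged 11.05 ± 0.18 after 2-hexanone and 10.27 ± 0.67 after vehicle in GFP+ cells (SD, n = 4 each). All 4 odor samples lay above all 4 vehicle samples, and vehicle replicate 4, at 9.26, lay apart from the other vehicle samples. The difference was 0.78 ± 0.29 SE (1.71-fold, 95% confidence interval 0.18 to 1.38, unadjusted p = 0.014, limma adjusted p = 1.00), and without vehicle replicate 4 it was 0.44 (adjusted p = 1.00). Over all alternatives the adjusted p was 0.343 to 1.00. In GFP- cells Cbr2 averaged 12.09 ± 0.25 after 2-hexanone and 11.49 ± 0.45 after vehicle, and the groups overlapped. That difference was 0.61 ± 0.29 SE (1.52-fold, 95% confidence interval 0.01 to 1.21, unadjusted p = 0.0483, limma adjusted p = 1.00). Neither passed the adjusted test.

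Epas1 in GFP- cells averaged 4.77 ± 0.16 after 2-hexanone and 4.00 ± 0.47 after vehicle, and the groups did not overlap. The difference was 0.77 ± 0.33 SE (unadjusted p = 0.0314, limma adjusted p = 1.00) under the floor throughout. Aldh1a7 in GFP- cells had a difference of 0.55 ± 0.23 SE (unadjusted p = 0.027, adjusted p = 1.00), also under the floor and with overlapping groups. Muc2 in GFP- cells had 0.57 ± 0.27 SE (unadjusted p = 0.0502, adjusted p = 1.00). Neither keratin passed in the GFP- cells, where they lay above the floor. There Krt18 had a difference of 0.25 ± 0.19 SE (95% confidence interval -0.15 to 0.65) and Krt8 one of 0.30 ± 0.23 SE (95% confidence interval -0.18 to 0.77). Fezf1 had 0.09 ± 0.16 SE in GFP+ cells and -0.01 ± 0.16 SE in GFP- cells, with 95% confidence intervals of -0.24 to 0.43 and -0.34 to 0.32.

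**Figure D5:**
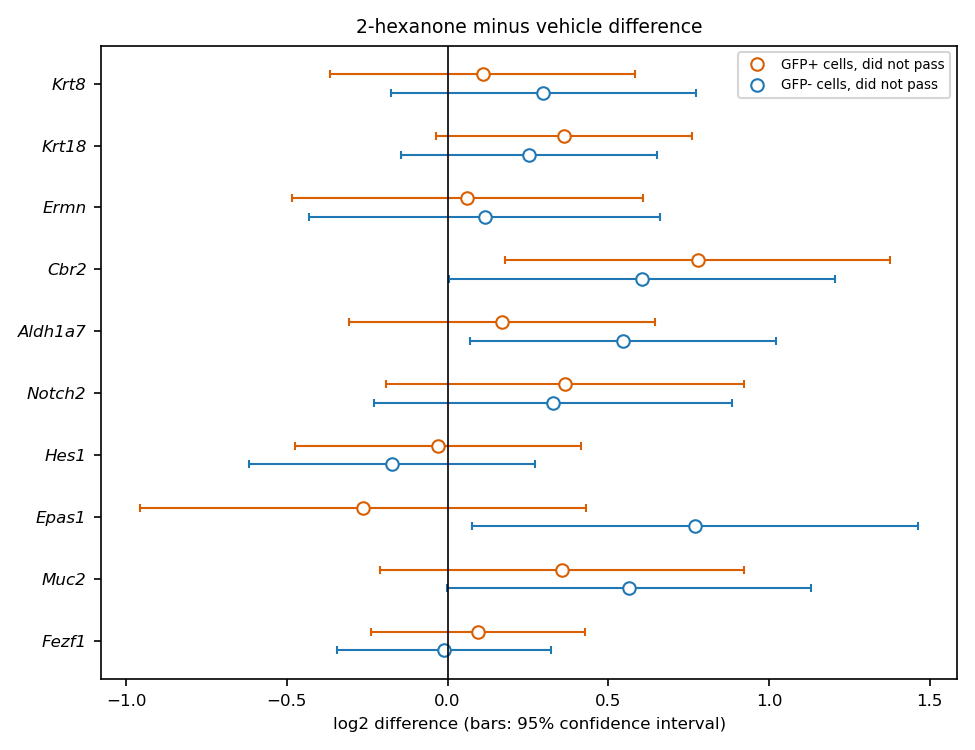
2-hexanone minus vehicle log2 difference of each labelled gene with its 95% confidence interval, in GFP+ cells (orange) and GFP- cells (blue); open points did not pass the limma test at adjusted p below 0.05. Every point is open, and the intervals of Cbr2 in both fractions and of Epas1 and Aldh1a7 in GFP- cells leave out 0.

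Other sustentacular markers gave 0 of 16 calls in either fraction under 2-hexanone, with medians of 0.18 in GFP+ and 0.11 in GFP- cells. The medians of all probe sets were 0.0032 and 0.0002. At an unadjusted p below 0.05, 2 of these markers were higher in GFP+ cells (Gstm1 and Sec14l3) and 1 in GFP- cells (Gstm1), against 1.98% and 1.23% of all probe sets. Cyp2g1, the gene most like Cbr2 over the arrays, averaged 13.70 after 2-hexanone and 12.97 after vehicle in GFP+ cells (0.72 ± 0.37 SE, limma adjusted p = 1.00). In GFP- cells it averaged 15.45 after 2-hexanone and 15.11 after vehicle (0.34 ± 0.37 SE, limma adjusted p = 1.00). The sort difference changed between 2-hexanone and vehicle for 0 of the 10 labelled genes by limma, where 0.00901% of all probe sets passed as higher and 0% as lower. At an unadjusted p below 0.05, 0 were higher and 1 was lower (Epas1), against 1.42% and 1.50% of all probe sets.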

How the data were processed

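The authors deposited 1 table of log2 signals for 16 arrays. The submitters' processing notes name Affymetrix Expression Console. Its version, how probes were summarised and which annotation was used is not given in the sources used here. Of 28846 rows, 6640 control rows were left out and 22206 probe sets entered the tests. Of these 19572 had 1 gene symbol in the platform annotation and 2634 had none. Sample titles gave the group and the replicate number. Nothing in the labels describes the pools beyond 3 mice each, so a p-value measures the spread between pools.

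Comparisons were fitted by limma 3.58.1 (lmFit, then eBayes) in R 4.3.3 on the deposited log2 values, with a mean for each of the 4 groups, all 16 arrays in the fit, 12 residual degrees of freedom and no covariates. Probe sets were called at a Benjamini-Hochberg adjusted p below 0.05 over all 22206. The fit was tested on simulated data. Where every array of the dimmer group was under its floor, a fold is a bound. It sets the brighter mean against the mean, over the dimmer arrays, of the higher of floor and value. Groups that were both under the floor have no fold. Figures were drawn with matplotlib 3.10.9 under Python 3.11.15.

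The 10 members and the 18 other gene lists (258 entries in all, 14 without a probe set here) were chosen with earlier results of these data known. Every member is named. Of each other list the rule took up to 3 genes that passed, by size, and up to 2 that did not, of highest mean. It also took the 3 genes most like each member that lay above the floor on at least 8 arrays. Krt14, Jag1, Rbpj, Cbr1, Tjp1, Cftr and Gstm1 fall outside this rule and were chosen after their values were seen.

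By the labels, the 2 sorted fractions of a pool come from the same mice. The correlation of their deviations from group means was 0.425, 0.0749, 0.161 and 0.109 in 2-hexanone pools 1 to 4, and 0.352, 0.0136, 0.0516 and 0.0837 in vehicle pools. Alternatives were the pool as a block, the replicate number as a block, 2 kinds of quantile normalization, centred arrays, filters on dim probe sets, values raised to the floor, a trended robust prior, array weights, only the arrays compared, and each pool left out. Leaving out both replicate 1 pools together was added after the data were seen. RefSeq start windows for build GRCm38.p6 were found for 8 of the 10 members, not for Hes1 and Epas1.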

Additional observations from a re-analysis of the deposited data

Results flagged for a closer look

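Among 40 groups of 4 arrays (10 genes in 4 groups), 3 had 1 array far from the other 3, where chance gives about 1 in 20. Cbr2 in GFP+ cells after vehicle read 9.26 in replicate 4, 1.29 below the nearest of the other GFP+ samples, and this gap was 0.926 of the group's range. Ermn in GFP+ cells after 2-hexanone read 4.17 in replicate 3, with a gap of 0.629 or 0.899 of the range. Krt8 in GFP+ cells after 2-hexanone read 4.37 in replicate 1, with a gap of 0.487 or 0.835 of the range. The Ermn and Krt8 readings were under the background floor. The 3 arrays came from different pools.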

How the results depend on the processing

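Across 21 other settings, 161 of 174 alternative values of the 9 called member differences kept their call and 0 changed sign, and 2 of 764 uncalled values became calls. Both counts leave out the floor filter and the raised floor for members under the floor on all arrays, Notch2 and Epas1 among them. In GFP+ against GFP- cells after 2-hexanone, with 5 of 10 genes lower and 0 higher, centring arrays on their medians gave 3 lower and 1 higher. Leaving out probe sets above the floor on fewer than 4 arrays gave 3 lower of 5 members left, raising values to the floor gave 2 lower of 5 members with a value, leaving out 1 pool gave 3 to 5, and leaving out both replicate 1 pools, a choice made after the data were seen, gave 3. After vehicle, with 4 lower and 0 higher, centring gave 1 higher and raising to the floor gave 2 lower of 5. The filter and the floor leave the 5 members under the floor on all arrays without a value by construction, and the cause of the other changes was not tested. For 2-hexanone against vehicle and the change of the sort difference, 0 of 558 alternative values were called (lowest adjusted p = 0.343).

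In the paired fit with the pool as a random replicate block (consensus correlation 0.171), 5 members were lower after 2-hexanone and 4 after vehicle, and no member's call changed under this block. The replicate number does not link odor and vehicle mice in the labels. Deviations of same-numbered odor and vehicle arrays correlated at 0.0492 to 0.419 in GFP+ and 0.031 to 0.354 in GFP- cells, with 2 of 4 numbers over 0.1 in each, and 7 of 8 GFP+ and 6 of 8 GFP- arrays correlated best with their own number, which is a hint from the data and not the design. As a block it gave Cbr2 in GFP+ cells an unchanged difference of 0.78 (adjusted p = 0.802). Signals under the floor limit Ermn, Aldh1a7, Notch2, Hes1 and Epas1 on all arrays, and Krt8 and Krt18 in GFP+ cells.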
